A study of Mus musculus with 40 samples.

Results

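RNA of 4 complement receptor genes, C3ar1, C5ar1, C5ar2 and Vsig4, was followed through the choroid and retina of laser-treated mice. These genes were picked by symbol and make up 4 of the 54307 genes in the table of normalized counts. Activated complement splits the proteins C3 and C5 and releases the small peptides C3a and C5a, called anaphylatoxins. C3ar1 encodes the G protein-coupled receptor of C3a and C5ar1 that of C5a, both well known from myeloid cells. C5ar2 encodes a further C5a receptor that does not signal through G proteins and recruits arrestins. Vsig4 (CRIg) is an immunoglobulin-type receptor of tissue macrophages that binds the C3 fragments C3b and iC3b on opsonized particles.

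The study asked how loss of the TGF-β receptor in endothelial cells acts on laser-induced choroidal neovascularization, and what mononuclear phagocytes contribute. Every mouse carried floxed Tgfbr2 alleles on a C57BL/6J background, received tamoxifen eye drops for 5 days from an age of 6 to 7 weeks, and had 6 laser burns placed in each eye. Tgfbr2ΔEC mice also carried Cdh5-CreERT2, a tamoxifen-inducible Cre driven by an endothelial promoter, and controls were Tgfbr2 fl/fl littermates without Cre. PLX5622 (PLX), an inhibitor of the CSF1 receptor on which microglia and many macrophages depend, was fed from the first tamoxifen dose to the end, or control food was given. Both tissues were taken on day 3 after laser, the choroid from its central, lesioned part, and both sexes were used. The groups control – PLX, Tgfbr2ΔEC – PLX, control + PLX and Tgfbr2ΔEC + PLX held 5 mice each, so that 20 mice gave 40 libraries. Because both genotypes have the floxed alleles, tamoxifen and laser lesions, unlesioned or untreated tissue is not among the groups.

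The deposited values were estimated reads per gene after normalization over all 40 libraries, so the depth could be read only approximately from the steps between low values. A library held about 20940403 to 30421581 reads. In a choroid 3 reads, the floor used here, were worth 2.70 to 3.57 normalized counts, and in a retina 2.24 to 3.38. This floor covers counting error only. Tgfbr2, the targeted gene, averaged 10503 ± 425 normalized counts in control – PLX and 10176 ± 1077 in Tgfbr2ΔEC – PLX choroids, and 11155 ± 1530 and 11220 ± 454 with PLX (SD, 5 mice each). In retina these means were 213 ± 55.4 and 178 ± 73.8 without PLX and 123 ± 35.7 and 113 ± 20.003 with it. The genotypes overlapped in all 4 pairs and did not differ detectably (exact permutation test, p between 0.325 and 0.865), so Tgfbr2 is no check of the genotype labels here. The paper reports successful deletion by PCR and qPCR of choroidal tissue. Cre acts in endothelial cells alone and these libraries are whole tissue, but why Tgfbr2 RNA did not differ was not tested. The labelled tissues carried their own markers. The score of 10 photoreceptor genes, which is their mean log2(normalized count + 1), was 15.8 to 16.4 in retinas and 7.51 to 12.9 in choroids, and a score of 8 retinal pigment epithelium (RPE) genes was 13.2 to 14.1 in choroids and 7.29 to 9.51 in retinas. The choroids thus also held photoreceptor RNA, and in uneven amounts.

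On GRCm39, C3ar1 (ENSMUSG00000040552) lies on chromosome 6 from 122823393 to 122833122, and Vsig4 (ENSMUSG00000044206) on chromosome X from 95290807 to 95337044. C5ar2 (ENSMUSG00000074361, chromosome 7, 15968503 to 15978121) and C5ar1 (ENSMUSG00000049130, 15980668 to 15993465) are neighbours on the same strand, with 2546 bases between them. All 4 are on the minus strand and protein-coding. C5ar2 overlaps the predicted gene Gm26473 on the same strand, so some reads there could belong to either.

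The sequences before the start sites are shown because all 4 genes fell with PLX, as described below. RefSeq promoters (GRCm38.p6 table) were found for 4 of 4 genes, with 5 start sites since C5ar2 has 2. Each window of 250 bases before a start was found at exactly 1 place in GRCm39. Of each window the longest stretch without an annotated exon is printed, 5′ to 3′ on the gene's strand. On GRCm39 these are chr6:122833123-122833366 for C3ar1, chr7:15993264-15993437 for C5ar1, chr7:15978122-15978329 and chr7:15976257-15976506 for C5ar2 and chrX:95337045-95337294 for Vsig4. The stretches of C5ar1 and of the second C5ar2 start lie within introns of the annotated genes, and the others lie upstream. Capitals mark matches, on either strand, to GAGGAA, the core bound by the myeloid factor PU.1, or to TGANTCA, the AP-1 site; the letters of these 2 motifs do not overlap in the windows.
C3ar1: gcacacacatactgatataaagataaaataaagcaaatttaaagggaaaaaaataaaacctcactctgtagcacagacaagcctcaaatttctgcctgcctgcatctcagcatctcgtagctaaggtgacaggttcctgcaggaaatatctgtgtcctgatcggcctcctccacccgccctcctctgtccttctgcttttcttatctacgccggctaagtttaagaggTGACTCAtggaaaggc
C5ar1: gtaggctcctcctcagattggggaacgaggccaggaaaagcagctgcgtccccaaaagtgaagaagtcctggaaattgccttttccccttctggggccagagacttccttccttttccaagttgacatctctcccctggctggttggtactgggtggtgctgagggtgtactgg
C5ar2, start 1: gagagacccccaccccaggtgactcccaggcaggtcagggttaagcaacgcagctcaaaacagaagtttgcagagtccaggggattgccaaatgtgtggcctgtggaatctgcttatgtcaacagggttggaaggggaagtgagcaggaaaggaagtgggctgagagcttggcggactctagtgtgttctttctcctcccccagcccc
C5ar2, start 2: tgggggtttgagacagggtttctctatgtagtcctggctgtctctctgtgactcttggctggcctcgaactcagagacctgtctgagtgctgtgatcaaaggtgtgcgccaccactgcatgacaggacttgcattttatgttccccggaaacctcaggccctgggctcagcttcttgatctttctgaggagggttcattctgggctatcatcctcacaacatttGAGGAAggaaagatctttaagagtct
Vsig4: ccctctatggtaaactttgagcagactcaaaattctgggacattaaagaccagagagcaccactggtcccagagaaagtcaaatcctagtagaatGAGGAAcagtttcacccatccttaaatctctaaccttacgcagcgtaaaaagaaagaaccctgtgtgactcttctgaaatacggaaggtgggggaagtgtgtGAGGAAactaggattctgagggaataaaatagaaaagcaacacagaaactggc

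GAGGAA occurred 149 and 47 bases before the Vsig4 start and once in the window of the inner (second) C5ar2 start, 20 bases before it. TGANTCA occurred once, 15 bases before the C3ar1 start. The windows of C5ar1 and of the outer C5ar2 start held neither motif. Of all 32851 RefSeq start sites, 23.3% had GAGGAA and 6.75% had TGANTCA in the same window, so the former is common. Matches describe letters and not bound sites.

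In lesioned choroid without PLX the anaphylatoxin receptors C3ar1 and C5ar1 were the abundant members. Levels of different genes are compared here per kilobase of annotated exon. In control – PLX choroids C3ar1 stood at 483 ± 41.7 normalized counts per kb (SD, n = 5 mice), with mice from 419.7 to 518. C5ar1 followed at 386 ± 16.5 (SD, n = 5), with mice from 365 to 404, so that every C3ar1 value lay above every C5ar1 value. C5ar2 and Vsig4 were far lower. C5ar2 stood at 29.9 ± 2.83 per kb (SD, n = 5) and Vsig4 at 30.8 ± 15.2 (SD, n = 5), and the mice of these last genes overlapped, at 25.1 to 32.1 and 13.6 to 47.9. In Tgfbr2ΔEC – PLX choroids the means per kb were 505 for C3ar1, 359 for C5ar1, 26.7 for C5ar2 and 19.3 for Vsig4. There the mice of C3ar1 (354 to 627) overlapped those of C5ar1 (271 to 439), and C5ar2 overlapped Vsig4. With PLX the means per kb in control choroids were 123 for C3ar1, 77.3 for C5ar1, 8.73 for C5ar2 and 0.53 for Vsig4. C3ar1 then overlapped C5ar1 (82.3 to 171 against 53.3 to 97.0), and C5ar2 lay above Vsig4 in every mouse (at least 7.09 against at most 1.40). Retina held far less of all of them. In control – PLX retinas the means per kb were 13.8 for C3ar1, 7.75 for C5ar1 and 1.94 for C5ar2, with overlapping mice between each pair of neighbours, and Vsig4 was at 0. In Tgfbr2ΔEC – PLX retinas they were 9.60 for C3ar1, 10.9 for C5ar1 and 1.79 for C5ar2, with C3ar1 (3.79 to 22.2) and C5ar1 (0.77 to 28.8) overlapping widely.

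PLX lowered all 4 receptors in choroid, in both genotypes, and the groups with and without PLX did not overlap for any of them. C3ar1 was 2103, 2495, 2322, 2598 and 2586 normalized counts in mice 1 to 5 of the control – PLX group and 561, 608, 858, 647 and 412 in mice 11 to 15 of the control + PLX group. Every choroid without PLX lay well above every choroid with PLX. In limma, with Benjamini-Hochberg adjustment over all genes tested as for every adjusted p below, the log2 difference was -2.005 (95% interval -2.38 to -1.63, adjusted p = 1.97e-07), a 3.92-fold lower mean. In Tgfbr2ΔEC choroids C3ar1 went from 2019, 2749, 3142, 2980.2 and 1774 (mice 6 to 10) to 563, 636, 636, 410.4 and 629.7 (mice 16 to 20). That is a log2 difference of -2.12 (95% interval -2.49 to -1.75, limma adjusted p = 1.19e-07).

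C5ar1 had the tightest control – PLX group, with 1014, 1039, 958, 1011 and 938 normalized counts. With PLX the control choroids held 158, 249, 241, 208 and 137. The highest of these lay far below the lowest without PLX. The log2 difference was -2.35 (95% interval -2.76 to -1.94, limma adjusted p = 1.14e-07), a 4.99-fold lower mean. In Tgfbr2ΔEC mice the values were 992, 1127, 1050.5, 747 and 696 without PLX and 137, 219, 194, 99.8 and 148 with it, a log2 difference of -2.55 (95% interval -2.96 to -2.14, limma adjusted p = 5.42e-08). Mice 9 and 10 were the low ones among the Tgfbr2ΔEC choroids without PLX, and still lay above every choroid with PLX.

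C5ar2, the arrestin-recruiting C5a receptor, was 141, 131, 141, 111 and 135 normalized counts in control – PLX and 32.99, 40.3, 53.5, 33.98 and 31.2 in control + PLX choroids. The log2 difference was -1.77 (95% interval -2.20 to -1.35, limma adjusted p = 5.60e-06). In Tgfbr2ΔEC mice it fell from 116, 117, 154, 112 and 88.0 to 23.95, 37.95, 33.2, 26.4 and 41.0, a log2 difference of -1.83 (95% interval -2.25 to -1.40, limma adjusted p = 3.55e-06). Its mean was 3.43-fold lower with PLX in controls and 3.61-fold lower in Tgfbr2ΔEC mice, the smallest folds of the 4 genes.

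Vsig4, the receptor of tissue macrophages, came down to the floor. It was 50.0, 62.5, 71.2, 24.9 and 20.2 normalized counts in control – PLX choroids. In control + PLX choroids it was 0 in 3 mice and 2.08 and 1.89 in the others, all at or under 3 reads. The fitted log2 difference of -4.76 (95% interval -6.04 to -3.47, limma adjusted p = 2.50e-05) depends on the added 1 at such values. In Tgfbr2ΔEC choroids Vsig4 was 14.8, 28.2, 16.1, 31.7 and 52.8 without PLX. With PLX mice 16 and 18 kept 4.95 and 5.65, above the floor, and the other 3 had 0. The log2 difference was -3.68 (95% interval -4.97 to -2.40, limma adjusted p = 0.000613). The mean was 57.6-fold lower with PLX in controls (95% counting interval 22.2 to 213) and 13.6-fold lower in Tgfbr2ΔEC mice (7.34 to 27.8), resting on about 4 and 11 reads with PLX. Without mouse 14 or 15 the first fold was 96.97 or 87.9, and without mouse 16 or 18 the second was 20.3 or 23.2. The exact two-sided permutation test of 5 mice against 5 gave p = 0.0079, the smallest it can give, for each of the 4 genes in each genotype.

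All 4 receptors were thus called lower with PLX in control choroid, where 3.15% of the 23619 genes tested were, and all 4 in Tgfbr2ΔEC choroid, where 3.50% were. The median log2 difference of the 4 was -2.18 in controls and -2.34 in Tgfbr2ΔEC mice, against 0.02 and -0.01 over all genes tested. Without any 1 of the 20 mice all 4 were still called in both genotypes. This includes mouse 15, whose choroid stood apart by its photoreceptor score within the control + PLX group (12.8 against 7.51 to 9.97 in the others).

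**Figure D1:**
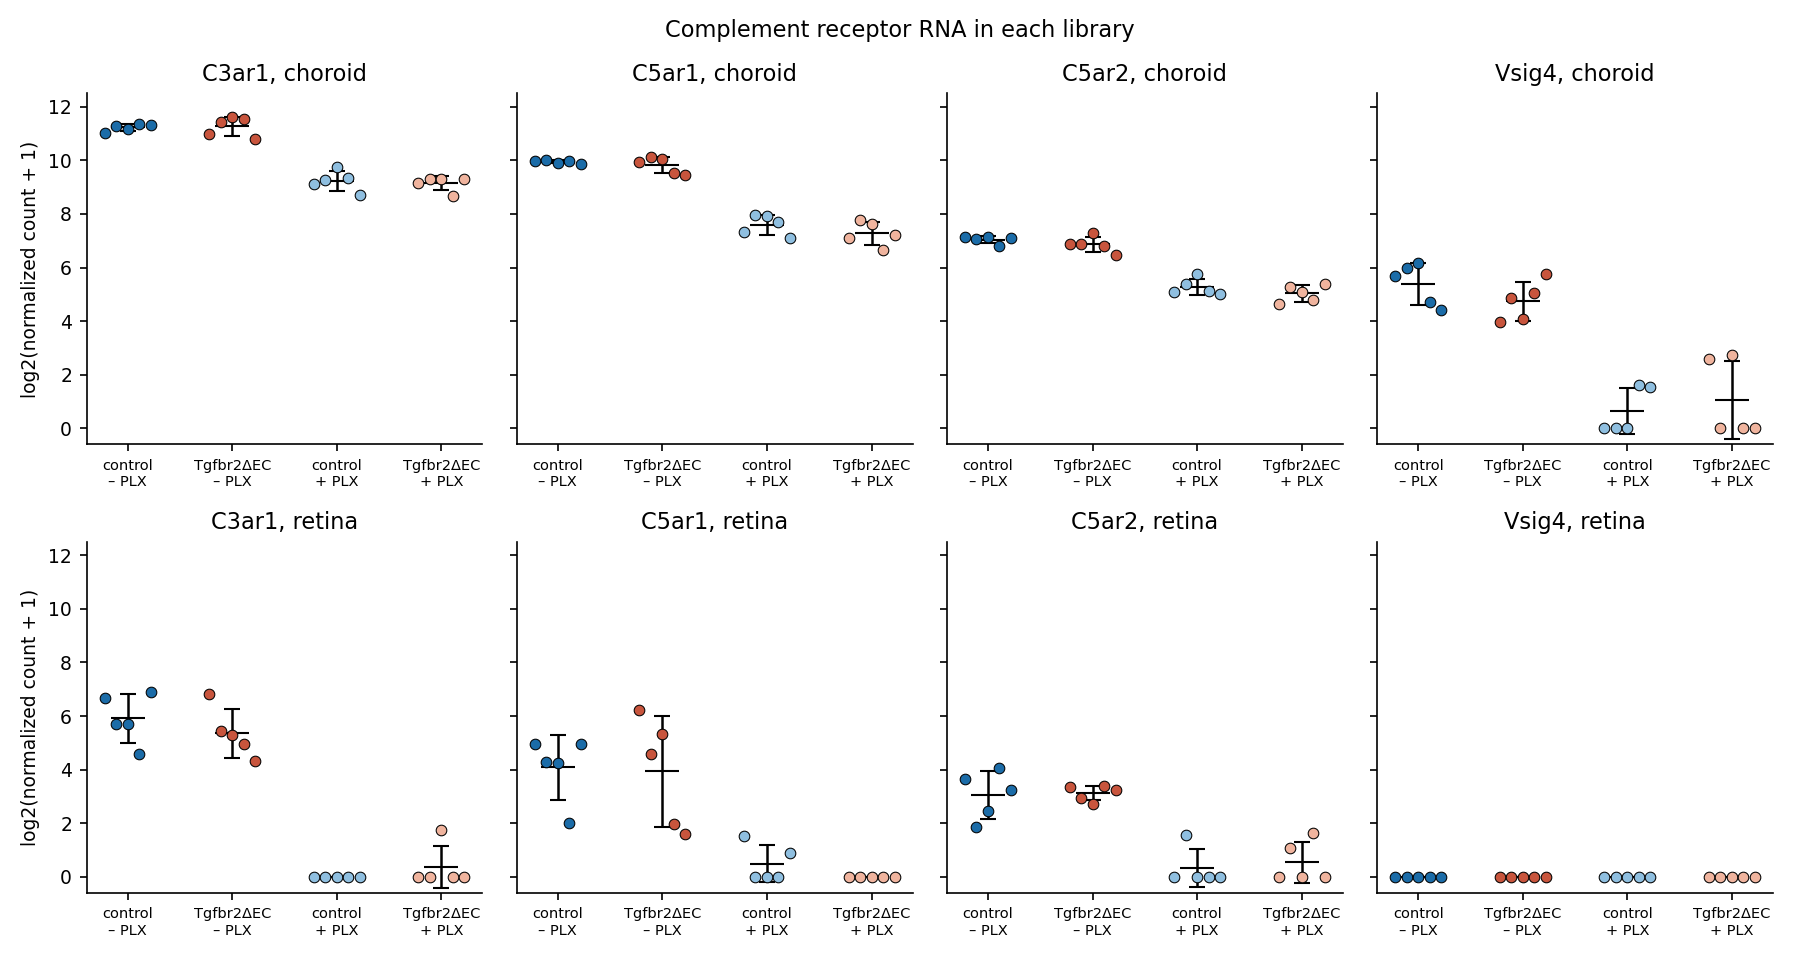
Level of each receptor as log2(normalized count + 1) in choroid (top) and retina (bottom), 1 point per mouse in mouse order, with the mean and SD of 5 mice as a bar and whiskers. In choroid each group with PLX lies below both groups without it for every gene, and in retina Vsig4 is at 0 in all 20 libraries.

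The fall went with a fall of phagocyte markers, and its parts cannot be told apart in whole tissue: fewer cells and less RNA per cell give the same bulk value. Summed over 10 phagocyte genes (Csf1r, Aif1, Adgre1, Mpeg1, Tyrobp, Fcer1g, Laptm5, Ctss, Cd68 and Trem2), control choroids held 51853 to 62659 normalized counts without PLX and 17152 to 27894 with it. All 10 were called lower in each genotype, and the score fell by 1.75 in controls and by 1.86 in Tgfbr2ΔEC mice (exact permutation test, p = 0.0079 for each). Resident macrophage genes such as Mrc1, Lyve1 and Cd163 fell by 3.75 and by 3.60 in score (exact permutation test, p = 0.0079 for each), with 10 of 10 and 9 of 10 called lower and summed levels of 10714 to 14624 without and 726 to 1806 with PLX in controls. Microglia genes fell by 1.95 and 1.96 (exact permutation test, p = 0.0079 for each). Neutrophil genes, from cells that also carry C5ar1, differed by -0.22 (exact permutation test, p = 0.452) and -0.13 (exact permutation test, p = 0.341), and monocyte genes by -0.69 (exact permutation test, p = 0.0238) and -0.34 (exact permutation test, p = 0.111). The neutrophil genes summed to 324 to 775 normalized counts in control – PLX and 221 to 462 in control + PLX choroids, and Ly6g and Mpo were at 0 in all mice of the latter. In Tgfbr2ΔEC choroids the photoreceptor score was also 2.14 lower and the mast cell score 1.40 higher with PLX (exact permutation test, p = 0.0079 for each). Dendritic cell genes were 0.83 and 0.77 lower in score (exact permutation test, p = 0.0079 for each), and endothelial genes 0.28 and 0.24 higher (exact permutation test, p = 0.0079 and 0.0159). The dendritic cell genes summed to 807 to 1066 normalized counts in control – PLX and 617 to 935 in control + PLX choroids, and none of them was at 0 in a whole group. Of single genes of these and other lists in control and Tgfbr2ΔEC choroid, 3 and 1 of 7 dendritic cell genes and 1 and 1 of 10 lymphocyte genes were called lower, 2 and 1 of 10 endothelial genes higher, and 0 of 9 mast cell, 0 of 8 RPE and 0 of 7 pigment cell genes either way. The part of these cell types in the receptor values was not tested.

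Set against the phagocyte score of the same library, the receptors did not all fall alike. C5ar1 fell by 0.60 more than the score in controls and by 0.69 more in Tgfbr2ΔEC mice, without overlap in either (exact permutation test, p = 0.0079 for each). C3ar1 differed from the score by -0.26 in both genotypes (exact permutation test, p = 0.0714 and 0.111), and C5ar2 by -0.03 and 0.03 (exact permutation test, p = 0.873 and 0.857). Vsig4 fell by 3.01 more than the score in controls (exact permutation test, p = 0.0079), and the value of -1.82 in Tgfbr2ΔEC mice did not pass (exact permutation test, p = 0.0556). Without mouse 16 or 18 the latter passed, at -2.19 and -2.21 (exact permutation test, p = 0.0317 for each), as it did with a pseudocount of 0.5 (-2.44, exact permutation test, p = 0.0476). These 8 comparisons depend on the cells chosen as reference. Against the resident macrophage list, C3ar1 was 1.75, C5ar1 1.40 and C5ar2 1.98 higher with PLX in controls (exact permutation test, p = 0.0079 for each), so these receptors fell less than resident macrophage genes and Vsig4 differed from them by -1.01 (exact permutation test, p = 0.111). In Tgfbr2ΔEC mice Vsig4 differed from that list by -0.089 (exact permutation test, p = 0.952). Against the microglia list C5ar1 differed by -0.40 in controls (exact permutation test, p = 0.111) and by -0.59 in Tgfbr2ΔEC mice (exact permutation test, p = 0.0159).

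**Figure D2:**
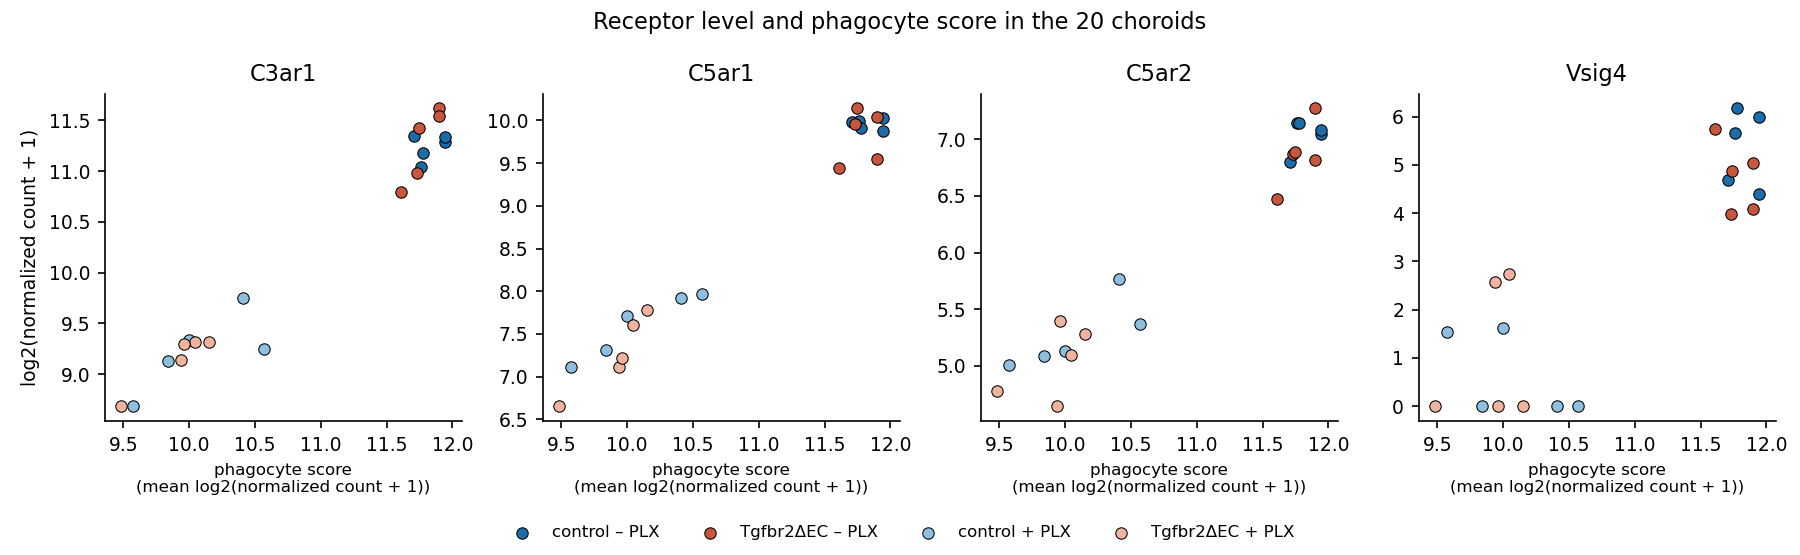
Level of each receptor against the phagocyte score of the same choroid, 1 point per mouse in the 4 groups, both as log2(normalized count + 1). Choroids with PLX (pale points, scores from 9.48 to 10.6) and without PLX (dark points, 11.6 to 11.9) form separate clusters in every panel.

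The neighbouring C5a receptor genes moved by unequal amounts. The log2 ratio of C5ar1 over C5ar2 ranged from 2.76 to 3.18 among control – PLX mice and from 2.10 to 2.60 among control + PLX mice. In Tgfbr2ΔEC – PLX mice its range was 2.73 to 3.25, and in Tgfbr2ΔEC + PLX mice 1.82 to 2.52. The groups with and without PLX did not overlap in either genotype. The ratio fell by 0.58 in controls and by 0.72 in Tgfbr2ΔEC mice (exact permutation test, p = 0.0079 for each), the only one of the 6 gene pairs past 0.05 in both genotypes. C3ar1 over C5ar1 rose by 0.35 in controls (exact permutation test, p = 0.0238), with overlapping mice and not without mouse 11, 13, 14 or 15 (0.30, 0.30, 0.35 and 0.36, exact permutation test, p = 0.0556 for each), and was 0.43 higher in Tgfbr2ΔEC mice (exact permutation test, p = 0.0714). C3ar1 over C5ar2 differed by -0.23 and -0.29 (exact permutation test, p = 0.135 and 0.0873). Relative to Vsig4 in controls, C3ar1, C5ar1 and C5ar2 were 2.75, 2.41 and 2.98 higher with PLX (exact permutation test, p = 0.0079 for each). With a pseudocount of 5 the calls of the first pair ended, at 1.02 for C3ar1 and 0.69 for C5ar1 (exact permutation test, p = 0.0556 and 0.127). In Tgfbr2ΔEC mice these values were 1.56, 1.13 and 1.86 (exact permutation test, p = 0.0794, 0.183 and 0.0794; for C5ar2 2.33 without mouse 16 and 2.26 without mouse 18, exact permutation test, p = 0.0397 and 0.0476), with Vsig4 near the floor in both genotypes, and with a pseudocount of 5 the value of C5ar1 turned to -0.29. The 12 ratio tests were not adjusted for their number.

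**Figure D3:**
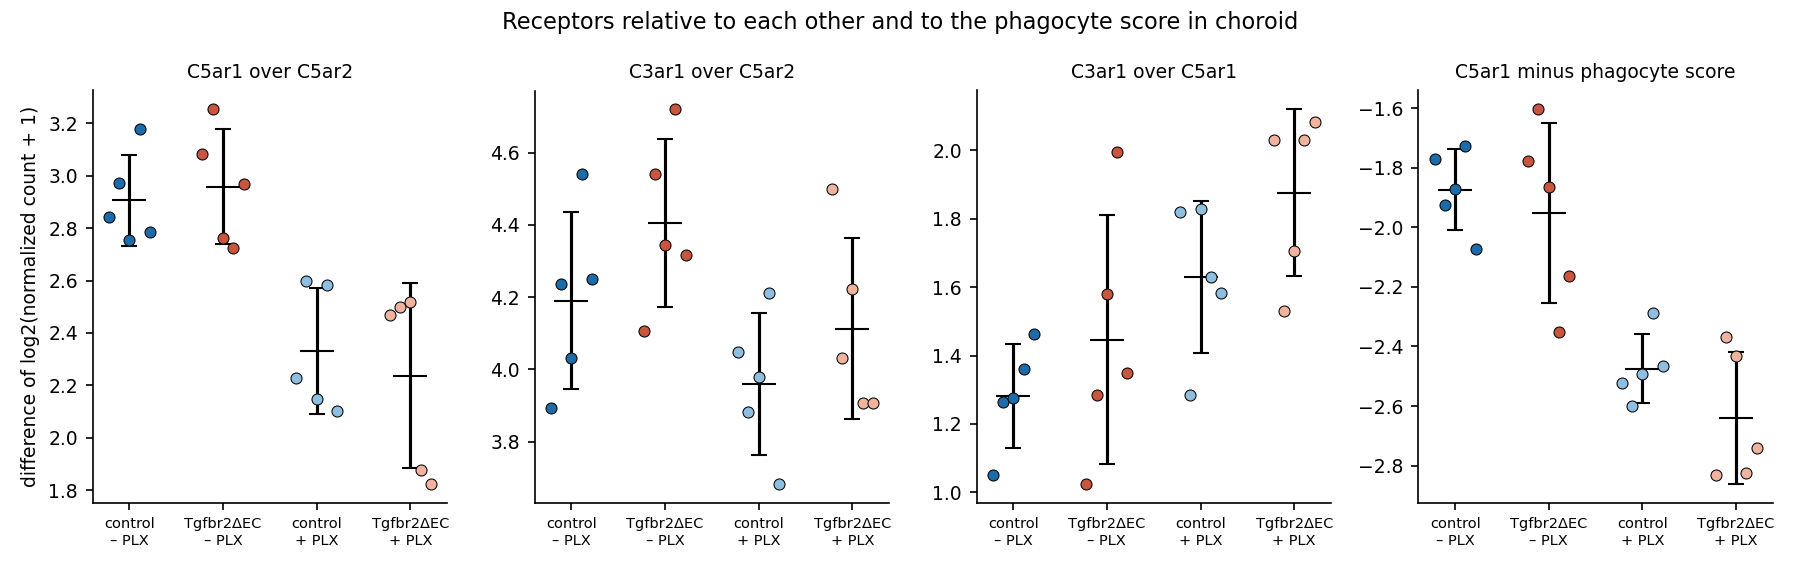
Differences of log2(normalized count + 1) between receptor pairs, and between C5ar1 and the phagocyte score, in each choroid, with mean and SD of 5 mice. C5ar1 over C5ar2 and C5ar1 minus the phagocyte score are lower in every choroid with PLX than in any without PLX of the same genotype.

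In retina PLX took the 3 detected receptors to the floor. C3ar1 was 101, 51.2, 50.6, 23.2 and 119.8 normalized counts in control – PLX retinas and 0 in all 5 control + PLX retinas, at least 118-fold lower against 3 reads over the group. In Tgfbr2ΔEC retinas it was 111, 42.2, 37.9, 30.04 and 18.97 without PLX, and with PLX 0 in 4 mice and 2.38 in mouse 18. The ratio of the means was 101 (95% counting interval 27.6 to 838), and without mouse 18 all retinas with PLX were at 0. The fitted log2 differences were -5.92 (95% interval -6.93 to -4.90, adjusted p = 1.25e-07) and -5.01 (95% interval -6.02 to -3.99, adjusted p = 1.60e-06) in limma.

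C5ar1 varied widely between retinas without PLX. It was 30.4, 18.3, 17.8, 3.05 and 30.1 in controls and 74.1, 22.8, 38.7, 2.88 and 1.99 in Tgfbr2ΔEC mice, so that mice 4, 9 and 10 were under the floor of 3 reads without PLX. With PLX it was 1.85 and 0.84 in mice 11 and 15 and 0 in the other 8 retinas. The log2 differences were -3.61 (95% interval -5.16 to -2.07, adjusted p = 0.0147) in controls and -3.93 (95% interval -5.47 to -2.39, adjusted p = 0.00808) in Tgfbr2ΔEC mice in limma. With a pseudocount of 5 they were -2.01 (limma adjusted p = 0.104) and -2.15 (limma adjusted p = 0.0926), neither of them called. Leaving out mouse 1, 5, 12 or 13 also ended the call in controls, with -3.39 (adjusted p = 0.0624), -3.40 (adjusted p = 0.0605), -3.49 (adjusted p = 0.0511) and -3.49 (adjusted p = 0.0513) in limma.

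C5ar2 was low in every retina. It was 11.6, 2.59, 4.47, 15.7 and 8.44 in control – PLX and 9.13, 6.76, 5.63, 9.37 and 8.42 in Tgfbr2ΔEC – PLX retinas. With PLX mouse 12 had 1.98, mice 17 and 19 had 1.09 and 2.10, and the other 7 had 0. The log2 differences were -2.73 (95% interval -3.73 to -1.74, adjusted p = 0.00269) and -2.59 (95% interval -3.58 to -1.59, adjusted p = 0.00655) in limma. Groups with and without PLX did not overlap for C3ar1, C5ar1 or C5ar2 in either genotype (exact permutation test, p = 0.0079 for each). The lowest C5ar1 values without PLX, in mice 4, 9 and 10, were themselves under 3 reads. C5ar2 of mouse 2 held about 3.06 reads, against 1.99 in mouse 12 with PLX. For these retinas the gap between diets lies within counting error. All 3 were called lower, against 0.727% of the 23243 genes tested in control retina and 0.512% in Tgfbr2ΔEC retina. Vsig4 was at 0 in all 20 retinas, under the mean of 1 needed for the test.

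Resident macrophage and monocyte genes of retina differed in score by -1.84 and -1.80 with PLX in controls (exact permutation test, p = 0.0079 for each) and by -0.97 and -0.93 in Tgfbr2ΔEC mice (exact permutation test, p = 0.135 and 0.0714). Dendritic cell genes differed by -0.93 in control and -0.55 in Tgfbr2ΔEC retinas (exact permutation test, p = 0.0079 and 0.19). Lymphocyte genes differed by -0.33 and -0.19 (exact permutation test, p = 0.0238 and 0.357), and RPE genes by 0.36 and 0.45 (exact permutation test, p = 0.476 and 0.0238). The phagocyte genes of these retinas summed to 1751 to 3918 normalized counts in control – PLX and 45.5 to 161 in control + PLX, where Adgre1, which encodes F4/80, was at 0 in all mice. Their score differed by -5.14 in controls and -4.796 in Tgfbr2ΔEC mice, and that of microglia genes by -4.12 and -4.24 (exact permutation test, p = 0.0079 for each). Among the 10 retinas without PLX, C3ar1 and C5ar1 were high where the phagocyte score was high. Within genotypes, Pearson's r with that score was 0.91 for C3ar1, 0.87 for C5ar1 and -0.03 for C5ar2 over 10 libraries. It was nearly as high or higher with some other lists, at 0.86 for C3ar1 with both dendritic cell and neutrophil genes, and at 0.88 for C5ar1 with C1q chains and 0.81 with neutrophil genes. These r are given as a description of libraries that share their depth and scaling. The part of cell number in these values was not tested.

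**Figure D4:**
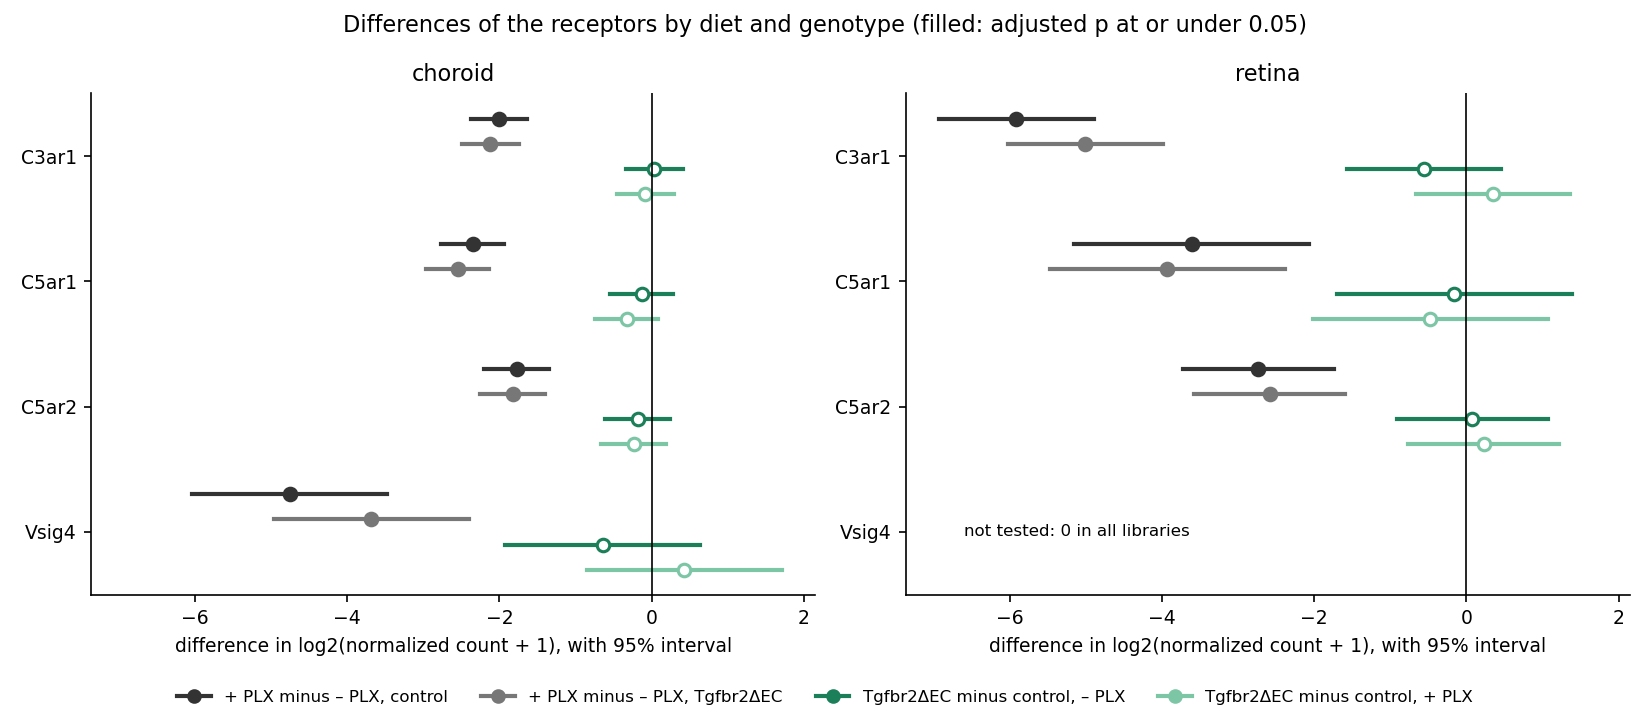
Difference of each receptor between diets (grey) and genotypes (green) as log2(normalized count + 1), with 95% intervals from limma, 5 mice per group. Vsig4 in retina was at 0 in all libraries, was not tested and has no interval. Every diet difference shown lies below 0 with its interval, and every genotype interval shown spans 0.

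Endothelial loss of Tgfbr2 went with no detectable change of the receptors. None of the 4 was called between genotypes in choroid without PLX or with PLX, where 0.00423% of all genes were in each case, and none of the 3 tested in retina without PLX or with PLX, where 0% were. At an unadjusted limma p under 0.05, 2184 and 889 genes differed in choroid and 758 and 629 in retina, and none of the receptors was among them. In choroid without PLX C3ar1 averaged 2421 ± 209 normalized counts in controls and 2533 ± 604 in Tgfbr2ΔEC mice (SD, 5 mice each), and C5ar1 992 ± 42.4 and 923 ± 190.4. The 95% interval of the Tgfbr2ΔEC level, fitted on the log scale, ran from 79.1% to 133% of the control level for C3ar1, from 68.6% to 122% for C5ar1, from 65.7% to 119% for C5ar2 and from 26.4% to 156% for Vsig4. With PLX the intervals were 73.0% to 122% for C3ar1, 59.8% to 106% for C5ar1, 63.3% to 114% for C5ar2 and 55.4% to 328% for Vsig4. In retina without PLX they were wide, from 33.7% to 138% for C3ar1, 30.7% to 261% for C5ar1 and 53.1% to 210% for C5ar2. Changes within these intervals could not be told from none with 5 mice a group. Without mouse 15, or in a fit of these 10 mice alone, 411 and 303 genes were called between genotypes in choroid without PLX, and no receptor was among them.

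Photoreceptor RNA moved with genotype in these choroids. The photoreceptor score was 2.41 higher in Tgfbr2ΔEC – PLX than in control – PLX choroids and the mice did not overlap (exact permutation test, p = 0.0079), with summed levels of 48572 to 137605 against 4047 to 28004 normalized counts. The mast cell score, in which no gene was at 0 in a whole choroid group, was 1.32 lower (exact permutation test, p = 0.0476). The score of endothelial genes, the cells in which Cre acts, was 0.11 higher (exact permutation test, p = 0.0397). The phagocyte score differed by -0.05 (exact permutation test, p = 0.452). In retinas with PLX the score of pigment cell genes was 0.88 higher in Tgfbr2ΔEC than in control mice (exact permutation test, p = 0.0079). The part of these markers in the receptor values was not tested. Tests of marker scores, here and elsewhere, were not adjusted for the number of lists and comparisons.

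The PLX effect on the receptors did not differ detectably between genotypes. For all 4 in choroid and all 3 in retina the interaction was not called, as for 0% of all genes in either tissue (1552 and 567 genes had an unadjusted p under 0.05 in choroid and retina, with no receptor among them). In choroid the PLX effect in controls minus that in Tgfbr2ΔEC mice was 0.12 (95% interval -0.41 to 0.64) for C3ar1, 0.20 (95% interval -0.39 to 0.78) for C5ar1 and 0.05 (95% interval -0.55 to 0.66) for C5ar2 on the log2 scale. For Vsig4 it was -1.07 (95% interval -2.89 to 0.74). Exact permutation of genotype within each diet gave p between 0.232 for Vsig4 and 0.841 for C5ar2. In retina the values were -0.91 (95% interval -2.34 to 0.53) for C3ar1, 0.32 (95% interval -1.86 to 2.50) for C5ar1 and -0.15 (95% interval -1.55 to 1.26) for C5ar2, with exact permutation p of 0.194, 0.78 and 0.813.

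All 4 receptors were higher in choroid than in retina of the same mice. Without PLX, C3ar1 was 35.01-fold and C5ar1 49.8-fold higher in control choroids, against 15.4-fold for C5ar2. In Tgfbr2ΔEC mice the folds were 52.7, 32.8 and 14.9, and without mouse 6 the first of these was 82.5 and the second 54.5. Vsig4 was at least 83.2-fold higher in control and 48.9-fold higher in Tgfbr2ΔEC choroids, against 3 reads over the retina group; without mouse 10 the latter bound was 31.5. The log2 differences over both genotypes were 5.62 for C3ar1, 5.88 for C5ar1, 3.87 for C5ar2 and 5.07 for Vsig4, all called as higher in choroid, as were 37.7% of the 24317 genes tested. With PLX the 4 differences were 9.02, 7.20, 4.73 and 0.85 and again all were called, beside 37.7% of all genes. The last rests on 4 choroids with any Vsig4, and leaving out mouse 14, 15, 16 or 18 ended the call, with 0.72 (adjusted p = 0.0563), 0.73 (adjusted p = 0.0541), 0.66 (adjusted p = 0.0682) and 0.64 (adjusted p = 0.0713) in limma.

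The fall with PLX was larger in retina than in choroid for C3ar1. The interaction of tissue and PLX was 3.40 (95% interval 2.68 to 4.12, limma adjusted p = 2.78e-08), and 1.37% of all genes were called. With pseudocounts of 5 and 0.5 it was 1.33 and 4.30, called each time. For C5ar1 it was 1.32 (95% interval 0.19 to 2.45, adjusted p = 0.355) and for C5ar2 0.86 (95% interval 0.14 to 1.58, adjusted p = 0.349), neither called by limma. With a pseudocount of 5 these turned to -0.34 and -0.47. Without mouse 15 the count of called genes rose from 332 to 620, with C3ar1 and Vsig4 called either way. Retinas near 0 with PLX limit how large a fall could be seen for these. The called interaction of Vsig4, -4.22 (95% interval -5.15 to -3.29, limma adjusted p = 5.13e-08), is the fall in choroid alone, as its retinas were at 0 on both diets.

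Other complement genes of the choroid split into those that fell with PLX and those for which no change was detected. All 3 C1q chains, C1qa, C1qb and C1qc, which start the classical pathway, were called lower in both tissues and genotypes. In control choroid C1qa differed by -3.33 and C1qb, the smallest, by -2.54 on the log2 scale, and in control retina C1qc by -7.80 and C1qb by -7.30. Of 6 further complement receptors, Itgam (-1.96), Itgb2 (-1.22) and Itgax (-1.06), which form the iC3b receptors CR3 and CR4, were called lower in control choroid. The same 3 genes were called lower in Tgfbr2ΔEC choroid and in both genotypes of retina, with Itgam at -6.42 and Itgax at -3.84 in control retina. Cr2, Cr1l and Cd93 were not called in any of these 4 comparisons.

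The precursors of the receptors' ligands were not called. C3, abundant in choroid, differed by 0.09 (95% interval -0.42 to 0.60) and Hc, the mouse gene of C5 and near the floor, by -0.02 (95% interval -2.15 to 2.10) in control choroid. Of the 7 genes of precursors and convertases, Cfp alone was called, with -1.77 in control and -1.99 in Tgfbr2ΔEC choroid (95% interval -2.45 to -1.53); it encodes properdin, which stabilizes the alternative convertase. In retina 0 of the 6 tested were called in either genotype, and the score of the list differed by -0.63 in control and -0.23 in Tgfbr2ΔEC retinas (exact permutation test, p = 0.0238 and 0.468). Of Cpn1, Cpn2 and Cpb2, genes of the carboxypeptidases that inactivate anaphylatoxins, 2 could be tested in choroid and 0 in retina, and neither was called. Among 5 G protein and arrestin genes, Gna15 (-1.62), the promiscuous Gα15 of blood cells, and Arrb2 (-1.42), β-arrestin 2, were called lower in control choroid, whereas Gnai2, Gnai3 and Arrb1 were not. In retina Arrb2 was not called (-0.03), and Gna15 was called in controls (-3.63) and not in Tgfbr2ΔEC mice (-2.67, adjusted p = 0.109 in limma); the difference between these effects was not called (-0.97, 95% interval -2.94 to 1.01). Beside 3.15% of all genes called lower in control choroid, 3 of 6 further receptors, 3 of 3 C1q chains, 1 of 7 precursors and convertases and 2 of 5 transducers were. Their median log2 differences were -1.14, -2.93, -0.02 and -0.23.

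**Figure D5:**
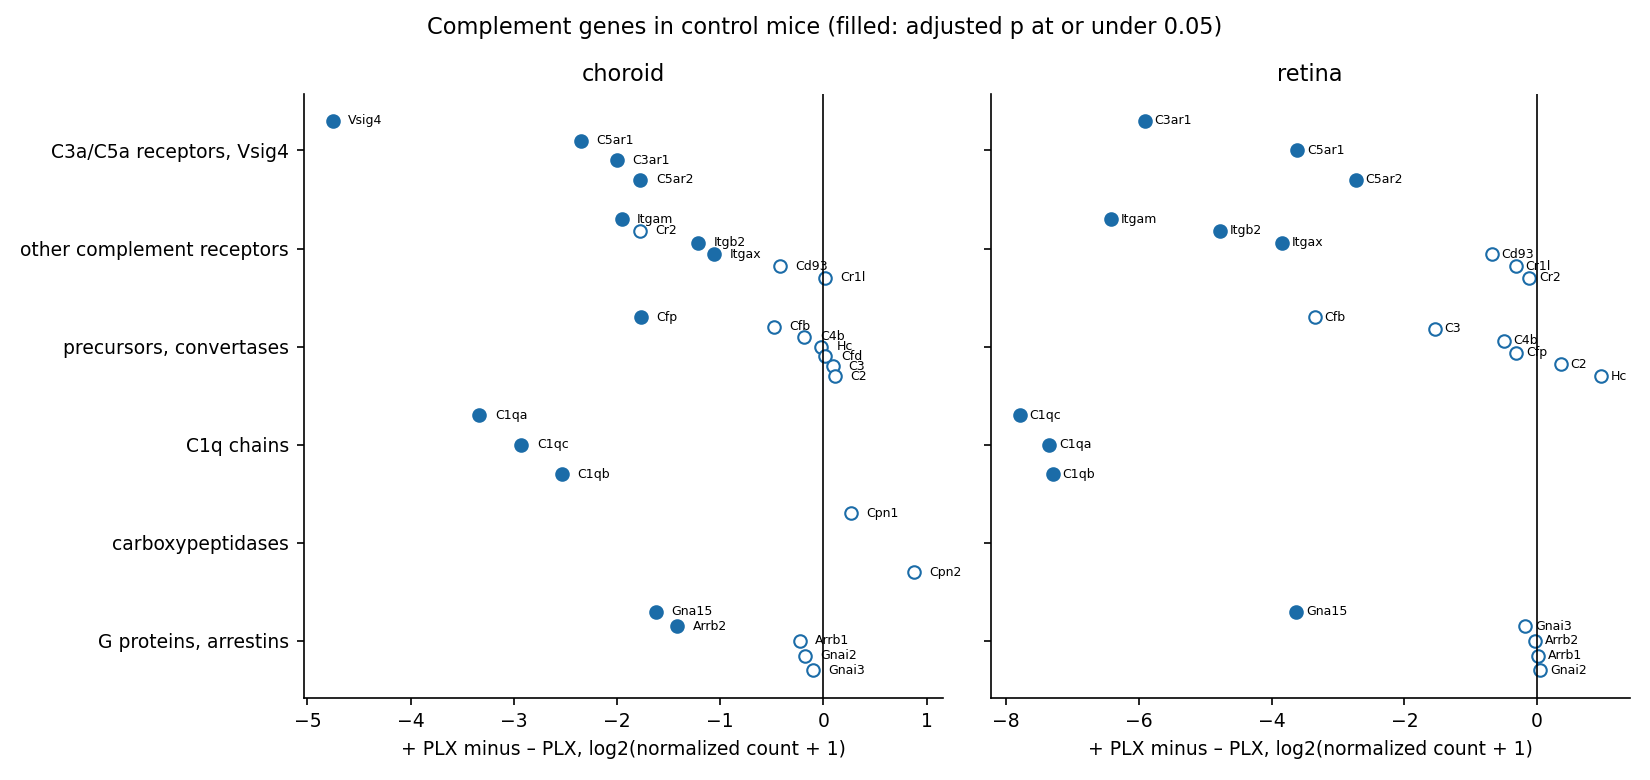
Difference + PLX minus – PLX of complement genes in control choroid and control retina as log2(normalized count + 1), by role, with filled points called by limma. The anaphylatoxin receptors, Itgam, Itgb2, Itgax and the C1q chains are filled in both tissues, and C3, Hc and C4b are open in both.

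Likeness of pattern was measured over the 20 choroids. For C3ar1 the highest Pearson's r on the log2 scale were those of Laptm5, Nckap1l, Lcp1, Itgam and Ms4a4a, from 0.989 to 0.992. C5ar1 was nearest to Lcp1, C1qa, Nckap1l, Fcgr3 and Cd53 (0.985 to 0.989), and C5ar2 to Lair1, Lcp1, Mpeg1, Adgre1 and C5ar1 (0.978 to 0.985). Vsig4 had lower maxima, with P2ry12 (0.94), Nxpe5 (0.93), Msr1 (0.92), Ugt1a7c (0.92) and Cd163 (0.92). Among the members, r was 0.98 between C5ar1 and C5ar2 and 0.83 between C5ar2 and Vsig4. These r follow the diet, which separates all 20 libraries, and describe libraries on a common scale.

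Within groups, as deviations from the group means, the likeness was weaker. C3ar1 was nearest to Laptm5 (0.89), Syk (0.89), Nckap1l (0.86), Lcp1 (0.86) and Mpeg1 (0.86) in choroid, and C5ar1 to Cd68 (0.86), Havcr2 (0.81), Fcgr3 (0.81), Calr (0.81) and Plau (0.80). For C5ar2 these were Gm8337 (0.82), Lair1 (0.82), Ctsb (0.81), Gm9887 (0.81) and Mpeg1 (0.78). For Vsig4 they were Gm45738 (0.77), Gbp2b (0.76), Gm5131 (0.76), Gm16973 (0.74) and Tmtc2 (0.74). These are the highest r among 23618 genes over 20 libraries, and how high they run without any link was not tested. The members C3ar1, C5ar1 and C5ar2 had r of 0.66 to 0.68 with each other in choroid, whereas Vsig4 had -0.18 with C3ar1, -0.13 with C5ar1 and -0.44 with C5ar2. In retina the levels of C3ar1 were nearest to Adgre1, Apbb1ip, Fcgr3, Tmem119 and Il21r (0.973 to 0.986), those of C5ar1 to Ly9, Lyz2, Igsf6, Spp1 and Ccl6 (0.925 to 0.961) and those of C5ar2 to Tbxas1, Arhgap30, Cd33, Itgam and Ptprc (0.911 to 0.931). Within groups of retinas C3ar1 had an r of 0.71 with C5ar1 and -0.13 with C5ar2.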

How the data were processed

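RNA of 40 libraries was examined, the retina and choroid of 20 mice in 8 groups of 5, grouped by the labels. The authors checked stranded poly-A single reads (FastQC 0.11.5), estimated reads per gene with Salmon 1.10.1 on GRCm39 and normalized with DESeq2 1.36.0. A median of ratios recomputed over 15800 genes gave every library the same size factor (1.008), so both tissues are on 1 scale. The deposited values are this signal, normalized counts per gene. It is not raw counts, and whole reads could not be recovered, with 45.7% to 71.7% of low values within 0.1 of a whole read, so no count model was used.

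Per tissue, genes averaging 1 or more were fitted with limma 3.58.1 (R 4.3.3) as log2(normalized count + 1), with a variance trend, 4 groups in one fit and adjusted p at or under 0.05 as the call; fold changes on this scale understate those of low genes. Tissues were compared in a fit of all 8 groups. Single values were compared by exact two-sided permutation of mice, computed with numpy (252 relabellings, smallest p 0.0079, and 63504 for interactions). A marker score is the mean log2(normalized count + 1) of a list. A floor is 3 reads, counting error only, and fold intervals near it are exact Poisson bounds. Named genes were the members, all genes of the pathway lists, and per member the 5 genes with the highest Pearson's r. Of 141 listed symbols 140 matched. The members and lists were chosen with earlier results of these data known.

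On simulated data with 2-fold changes in 200 genes of mean at least 10, 65.5% were recovered in choroid (4 false calls, 24771 genes) and 62% in retina (7 false calls, 24274 genes). Library names tie both tissues to 1 mouse, so the tissue fits were repeated with mouse as a block. The deviations of both tissues correlated over 0.1 in 12 of 20 mice (-0.16 to 0.29, median 0.13). Alternatives were the pseudocount, the minimum mean, other scalings, robust variance, sex and photoreceptor scores as covariates, 10 mice only, the reference list, and leaving out each mouse. Sex and the cell-type covariates of the authors' models are not in the labels and were not used. Tables were handled in Python 3.11.15 with numpy 2.4.6 and pandas 2.3.3, figures with matplotlib 3.10.9.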

Additional observations from a re-analysis of the deposited data

Results flagged for a closer look

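In 26 groups of 5 libraries, 3 held a library whose gap to its nearest neighbour was over 0.71 of the group's range. By chance about 1 in 20 groups of continuous values has such a gap, a share that does not apply to 2 of the 3 groups, in which the other 4 libraries were at 0. C3ar1 in the Tgfbr2ΔEC – PLX retinas was 111 normalized counts in mouse 6 against 18.97 to 42.2 in the others, a gap of 0.748 of the range. C5ar1 was also highest in that retina, at 74.1. Mouse 18 was the only Tgfbr2ΔEC + PLX retina with any C3ar1 (2.38, a gap of 1.00 of the range), and mouse 12 the only control + PLX retina with any C5ar2 (1.98, a gap of 1.00 of the range). Both values lie under the floor of 3 reads.

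The effect of PLX differed between the tissues for C3ar1, by 3.40 on the log2 scale, and for Vsig4, by -4.22. The first is a larger fall in retina than in choroid, although retinas with PLX were at or near 0. The second is set by the absence of detected Vsig4 in all retinas.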

How the results depend on the processing

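The falls of C3ar1, C5ar1, C5ar2 and Vsig4 with PLX in choroid, and of C3ar1 and C5ar2 in retina, kept their direction and call under every alternative in which they were tested; a minimum mean of 10 removed C5ar2 from the retina fit. C5ar1 in retina lost its call with a pseudocount of 5 (-2.01 in controls, -2.15 in Tgfbr2ΔEC mice) and, in Tgfbr2ΔEC mice, with 10 mice only (-3.93, adjusted p = 0.0592 in limma). A pseudocount of 5 also ended the tissue difference of Vsig4 with PLX (0.30) and turned the tissue by PLX values of C5ar1 (-0.34) and C5ar2 (-0.47). That of C3ar1 ran from 1.33 to 4.30 over the alternatives and was called in each. With a minimum mean of 10, 1 receptor had a called tissue by PLX interaction in place of 2, as Vsig4 was not tested. With mouse as a replicate block no call of the receptors changed, and the tissue by PLX interaction of C3ar1 had an adjusted p of 5.87e-06 in limma.

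Relative to marker lists, the direction depended on the list. Against resident macrophage genes the values were 1.75 (C3ar1), 1.40 (C5ar1), 1.98 (C5ar2) and -1.01 (Vsig4) in controls and 1.47, 1.05, 1.77 and -0.089 in Tgfbr2ΔEC mice. Against microglia genes they were -0.40 for C5ar1 and 0.18 for C5ar2 in controls. With a pseudocount of 5, C3ar1 (-0.26) passed and C5ar2 was 0.063 against the phagocyte score in controls. In controls C3ar1 over Vsig4 (1.02) and C5ar1 over Vsig4 (0.69) no longer passed (exact permutation test, p = 0.0556 and 0.127), while C5ar2 over Vsig4 did (1.34, exact permutation test, p = 0.0238), and in Tgfbr2ΔEC mice C5ar1 over Vsig4 was -0.29 and C3ar1 over C5ar2 -0.40. With a pseudocount of 0.5, Vsig4 against the score passed in Tgfbr2ΔEC mice (-2.44). With the photoreceptor score as covariate, the uncalled genotype differences without PLX were 0.059 (C5ar1) and 0.040 (C5ar2) in choroid and 0.041 (C5ar1) in retina. The causes of these shifts were not tested.

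Leaving out 1 mouse at a time, the calls or directions that changed had these ranges. C3ar1 over C5ar1 was 0.29 to 0.43 in controls and 0.32 to 0.57 in Tgfbr2ΔEC mice, C3ar1 over C5ar2 -0.30 to -0.14 and -0.39 to -0.21, and C5ar2 over Vsig4 1.502 to 2.33 in Tgfbr2ΔEC mice. Against the score, C3ar1 was -0.30 to -0.14 and -0.34 to -0.20, C5ar2 -0.085 to 0.073 and -0.044 to 0.14, and Vsig4 -2.21 to -1.50 in Tgfbr2ΔEC mice. Uncalled genotype differences of C3ar1 were -0.052 to 0.15 in choroid without PLX, -0.22 to 0.047 with PLX and 0.00 to 0.44 in retina with PLX. In retina without PLX they were -0.73 to 0.43 for C5ar1 and -0.22 to 0.33 for C5ar2, which had -0.049 to 0.54 with PLX. Genotype by PLX interactions were -0.013 to 0.25 (C3ar1) and -0.071 to 0.15 (C5ar2) in choroid and -0.26 to 0.91 (C5ar1) and -0.46 to 0.13 (C5ar2) in retina. C5ar1 differed by -4.13 to -3.39 with PLX in control retina, and the tissue difference of Vsig4 with PLX was 0.64 to 0.98. Receptors called numbered 2 to 3 in control retina and 3 to 4 between tissues with PLX.

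Over all genes, calls with PLX in control choroid went from 885 to 572 with 10 mice only, in Tgfbr2ΔEC choroid from 958 to 537 with the photoreceptor covariate, and in control retina from 171 to 104 with a minimum mean of 10. Depth limits Vsig4 with PLX and every receptor in retina with PLX, which lay at or under 3 reads except Vsig4 in the choroids of mice 16 and 18. It also limits C5ar1 in the retinas of mice 4, 9 and 10 without PLX, which lay under 3 reads.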
